A study of Mus musculus with 4 samples.

Results

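Bcl11b, Tbr1, Fezf2, Cux1, Cux2, Rorb, Tle4, Eomes and Pou3f2 are transcriptional regulators of cortical projection neurons and of their progenitors, and these 9 genes were taken by symbol from the 29224 genes of the count table. RNA sequencing had been carried out on cells isolated from the cerebral cortex of mice at P5 (postnatal day 5) with magnetic beads against ACSA-1, an epitope of the glutamate transporter GLAST that astrocytes carry on their surface. The control mice (Ezh2 f/f, labelled Ezh2fl/fl, 2 libraries) had floxed Ezh2 alleles, and the knockout mice (Ezh2 cKO, labelled Ezh2-cKO-Aldh1l1, 2 libraries) had the same alleles together with a Cre driven by Aldh1l1, so that the deletion was aimed at astrocytes and not at neurons. Nothing in the labels says whether the libraries of a group came from separate animals, so the p-values below measure the spread between these libraries, which may be technical.

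Projection neurons of the cortex are glutamatergic cells born from radial glia, either directly or through intermediate progenitors, and deep-layer neurons are born before upper-layer neurons. Their identity is set by transcription factors that partly repress one another: Fezf2 and Bcl11b (CTIP2) in neurons projecting to the spinal cord and brainstem, Tbr1 and Tle4 in neurons projecting to the thalamus, and Cux1, Cux2 and Pou3f2 (BRN2) in upper-layer neurons. Rorb marks the layer that receives thalamic input, and Eomes (TBR2) marks intermediate progenitors. Ezh2 encodes the catalytic subunit of PRC2, the complex that places H3K27me3, a repressive histone mark. The 9 genes were taken as regulators of neurons and their progenitors, and bulk counts cannot show which cells their reads came from. Their reads in a bead-sorted astrocyte sample are therefore given with the markers of neurons and glia measured in the same libraries.

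Promoter sequence is shown for 5 of the 9 genes because the results turn on them: Eomes, the regulator that fell most, beside its T-box paralogue Tbr1, then Cux1, which fell, beside its paralogue Cux2, which did not pass the test, and Rorb, the regulator that rose. Each run is 300 bases of the GRCm38.p6 genome from RefSeq, 250 before and 50 after an annotated start, written 5′ to 3′ on the strand of the gene, with every CG dinucleotide in capitals. The positions are chr9:118477939-118478238 on the plus strand for Eomes, chr2:61804203-61804502 on the plus strand for Tbr1, chr5:136565932-136566231 on the minus strand for Cux1, chr5:122049802-122050101 on the minus strand for Cux2 and chr19:19111147-19111446 on the minus strand for Rorb.
Eomes: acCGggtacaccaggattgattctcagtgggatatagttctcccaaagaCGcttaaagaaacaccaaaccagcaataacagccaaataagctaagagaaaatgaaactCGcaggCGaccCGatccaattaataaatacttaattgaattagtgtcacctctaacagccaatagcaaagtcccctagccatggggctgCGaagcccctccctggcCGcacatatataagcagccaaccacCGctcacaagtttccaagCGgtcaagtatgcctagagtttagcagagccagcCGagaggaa
Tbr1: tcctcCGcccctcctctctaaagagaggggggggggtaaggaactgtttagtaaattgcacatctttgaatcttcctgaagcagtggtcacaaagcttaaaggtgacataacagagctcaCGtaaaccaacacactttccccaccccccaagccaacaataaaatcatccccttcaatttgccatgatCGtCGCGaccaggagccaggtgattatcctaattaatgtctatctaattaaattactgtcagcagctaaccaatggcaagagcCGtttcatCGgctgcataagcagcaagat
Cux1: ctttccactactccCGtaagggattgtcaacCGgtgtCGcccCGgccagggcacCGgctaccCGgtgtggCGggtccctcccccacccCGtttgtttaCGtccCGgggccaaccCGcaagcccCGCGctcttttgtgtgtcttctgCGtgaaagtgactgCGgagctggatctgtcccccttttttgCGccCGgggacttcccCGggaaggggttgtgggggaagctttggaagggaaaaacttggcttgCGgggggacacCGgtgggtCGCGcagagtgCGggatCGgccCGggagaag
Cux2: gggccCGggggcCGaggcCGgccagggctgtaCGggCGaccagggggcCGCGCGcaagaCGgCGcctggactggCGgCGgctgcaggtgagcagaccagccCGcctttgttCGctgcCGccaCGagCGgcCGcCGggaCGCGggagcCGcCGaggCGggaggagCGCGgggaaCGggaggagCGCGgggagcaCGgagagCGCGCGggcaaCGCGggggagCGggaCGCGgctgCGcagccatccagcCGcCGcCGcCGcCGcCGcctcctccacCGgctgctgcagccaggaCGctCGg
Rorb: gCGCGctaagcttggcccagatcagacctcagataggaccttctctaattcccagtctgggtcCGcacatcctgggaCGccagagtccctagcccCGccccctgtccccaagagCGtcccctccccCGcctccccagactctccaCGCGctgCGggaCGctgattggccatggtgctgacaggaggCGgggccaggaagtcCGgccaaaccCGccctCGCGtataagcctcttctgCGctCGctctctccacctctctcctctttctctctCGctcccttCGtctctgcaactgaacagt
The Eomes window held 10 CG dinucleotides and that of Tbr1 held 7, where the median of 32851 windows of this length was 7. The windows printed for Cux1 (25), Cux2 (48) and Rorb (20) were richer in CG. Rorb, which rose, and Cux1, which fell by nearly 2-fold, thus both had CG-rich printed windows. At another RefSeq start of the same gene, the window held 4 CG dinucleotides for Cux2 and 5 for Rorb. Of the other regulators, Bcl11b had 9 CG dinucleotides, Fezf2 20, Pou3f2 24 and Tle4 28 in the window of their most upstream RefSeq start.

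Short motifs were looked for on both strands of these windows: TAATTA, a homeodomain core, CCAAT, the CCAAT box, GGGCGG, the GC box, and TCACACC, a T-box core. TAATTA was present in the window of 1 regulator, Tbr1, with 2 matches, and in 5.29% of all windows. CCAAT was present in 5 of the 9 first windows and in 37.4% of all windows, and GGGCGG in 5 of 9 and in 35.7% of all windows. TCACACC was present in 0 of the 9 windows and in 3.98% of all windows. These are matches of letters in a fixed window and their relation to the fold changes was not tested.

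The libraries held 16273308 to 17522152 counts, and 16793 genes passed the filter on low counts, all 9 regulators among them. A gene was called changed at an adjusted p under 0.05 in edgeR's quasi-likelihood test with Benjamini-Hochberg adjustment over these 16793 genes, and all fold changes and adjusted p-values below come from this test unless another is named. Reads of Ezh2 itself numbered 434 and 327 in the controls against 211 and 164 in the knockouts (log2 fold change -1.11 ± 0.16 SE, adjusted p = 3.26e-05). Neuronal transcripts were abundant in all 4 libraries. Levels are given in FPKM, the authors' values, scaled to gene length and library size. The neuronal tubulin Tubb3 was measured at 1859 and 1897 FPKM in Ezh2 f/f and at 1223 and 1207 FPKM in Ezh2 cKO. Tubb3 is among the 12 immature neuron genes described below, of which 9 were called lower in Ezh2 cKO and 1 higher. Of 12 pan-neuron genes, 11 were called higher and 1 lower, beside 34.7% higher and 33.6% lower among all genes tested. The sort target Slc1a3 (GLAST) stood at 11.1 and 11.6 FPKM in Ezh2 f/f and at 36.1 and 36.5 FPKM in Ezh2 cKO, and was chosen for mention after its values were seen. Levels of RNA in a sorted bulk sample cannot separate fewer cells of a type from less RNA per cell.

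Against this background, 7 of the 9 regulators were lower in Ezh2 cKO (Bcl11b, Tbr1, Fezf2, Cux1, Tle4, Eomes and Pou3f2), 1 was higher (Rorb) and 1 did not pass the test (Cux2). Of all genes tested, 68.4% were called, 33.6% lower and 34.7% higher, so being called is common in this comparison and only the sizes and directions of the regulators are described. The median log2 fold change of the 9 regulators was -0.46, and that of all genes tested was 0.02, with quartiles at -0.64 and 0.76. In CPM, the counts scaled to library size with TMM factors, both Ezh2 cKO libraries lay below both Ezh2 f/f libraries for 8 regulators and above them for 1, where 41.5% of all genes lay below and 42.8% above without overlap. The fold changes ran from -3.46 for Eomes to 1.09 for Rorb on the log2 scale, and 6 of the 7 that fell changed by less than 2-fold.

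**Figure D1:**
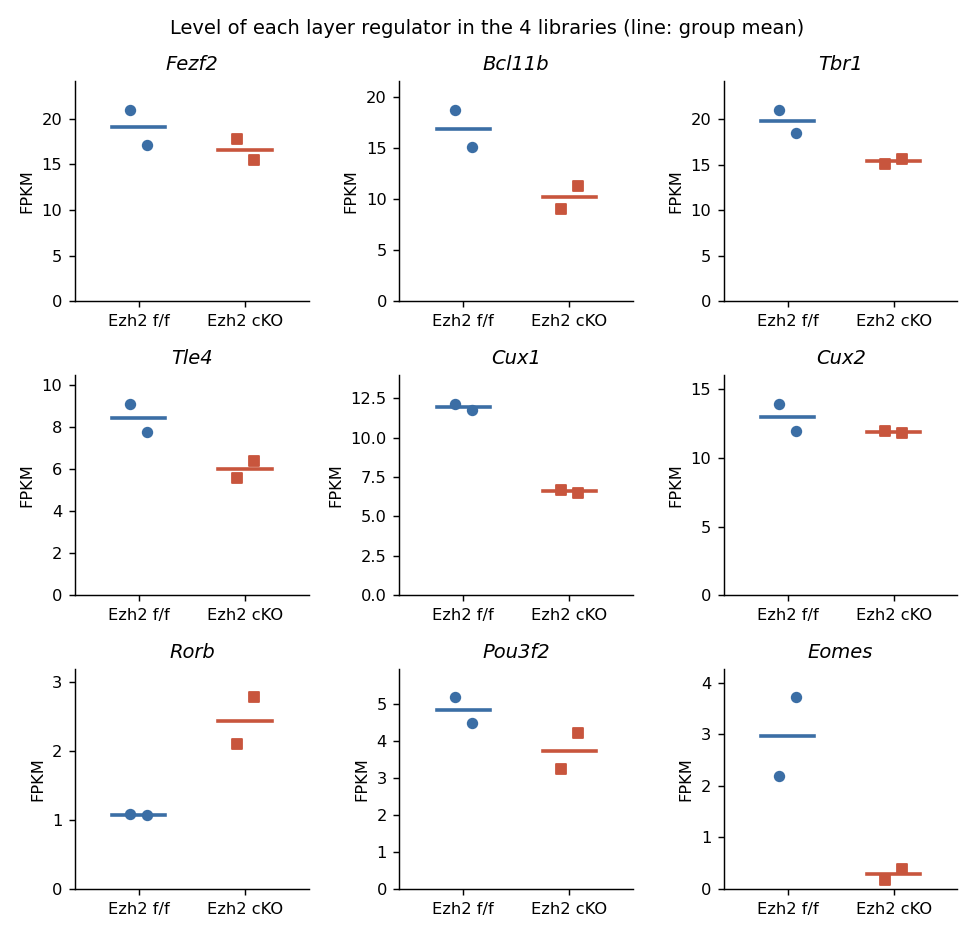
FPKM of each of the 9 layer regulators in the 2 Ezh2 f/f libraries (circles) and the 2 Ezh2 cKO libraries (squares), with the group mean as a line and every axis starting at 0. Eomes falls from 2.198 and 3.71 FPKM to 0.181 and 0.390 FPKM, Rorb rises from 1.08 in both control libraries to 2.10 and 2.78 FPKM, and the Cux2 values of the groups nearly touch.

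Among the regulators of subcerebral projection neurons, Bcl11b fell clearly and Fezf2 fell by little. Bcl11b, a zinc finger factor needed for the axons of corticospinal neurons, was measured at 18.7 and 15.1 FPKM in Ezh2 f/f and at 9.06 and 11.3 FPKM in Ezh2 cKO. Both Ezh2 cKO libraries were below both Ezh2 f/f libraries, with replicate 1 of the controls the highest and replicate 1 of the knockouts the lowest. The fall was 1.76-fold (log2 fold change -0.81 ± 0.12 SE, adjusted p = 3.65e-05). Fezf2, a zinc finger factor that acts upstream of Bcl11b in these neurons, stood at 20.98 and 17.1 FPKM in Ezh2 f/f and at 17.7 and 15.5 FPKM in Ezh2 cKO. On the FPKM scale the groups overlapped, because replicate 1 of Ezh2 cKO lay above replicate 2 of Ezh2 f/f, whereas in CPM the values were 65.6 and 54.1 against 53.1 and 45.4 and did not overlap. Fezf2 passed the test by little (log2 fold change -0.28, 95% interval -0.52 to -0.04, adjusted p = 0.0394), and DESeq2, which called 58.8% of all genes, did not call it (adjusted p = 0.0647). Within each library, the ratio of Fezf2 to Bcl11b in FPKM was 1.12 and 1.14 in Ezh2 f/f against 1.96 and 1.37 in Ezh2 cKO, so the balance of the pair moved towards Fezf2 in both knockout libraries. With 2 libraries in each group, an exact two-sided permutation test of any such ratio cannot give a p below 0.333, and this is the p of every ratio given here. Bcl11a (CTIP1), the paralogue of Bcl11b, was measured at 11.3 and 9.79 FPKM in Ezh2 f/f and at 7.34 and 8.57 FPKM in Ezh2 cKO (log2 fold change -0.49, adjusted p = 7.19e-04), and the ratio of Bcl11b to Bcl11a went from 1.65 and 1.54 to 1.23 and 1.32.

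The regulators of corticothalamic neurons, Tbr1 and Tle4, both fell. Tbr1, a T-box factor that represses the subcerebral programme in the deepest layer, had 21.01 and 18.5 FPKM in Ezh2 f/f and 15.1 and 15.6 FPKM in Ezh2 cKO. The knockout libraries were close to each other and both lay below the controls, for a 1.36-fold fall (log2 fold change -0.45 ± 0.10 SE, adjusted p = 9.72e-04). Tle4, a Groucho-family co-repressor, stood at 9.14 and 7.78 FPKM in Ezh2 f/f and at 5.61 and 6.39 FPKM in Ezh2 cKO. The groups did not overlap, and the fall was 1.495-fold (log2 fold change -0.58 ± 0.11 SE, adjusted p = 3.40e-04). As a share of the summed FPKM of the 9 regulators, Tbr1 took 20.1% and 20.2% in Ezh2 f/f against 21.1% and 20.95% in Ezh2 cKO, and the sum itself went from 104 and 91.5 FPKM to 71.7 and 74.5 FPKM. The share of Tbr1, which is itself part of the sum, was thus slightly higher in both knockout libraries. Bcl11b went from 17.9% and 16.5% of the sum to 12.6% and 15.2%. Sox5, a factor that controls the sequence in which corticofugal neurons arise, was not called (2.88 and 1.94 against 2.18 and 2.26 FPKM, log2 fold change -0.21, adjusted p = 0.232), and its groups overlapped.

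The paralogues Cux1 and Cux2 are homeodomain factors of upper-layer neurons that shape their dendrites and synapses, and Cux1 fell while Cux2 did not pass the test. Cux1 was measured at 12.2 and 11.8 FPKM in Ezh2 f/f and at 6.69 and 6.49 FPKM in Ezh2 cKO. The libraries of each group lay close together and the groups were far apart, for a fall of 1.92-fold (log2 fold change -0.94, 95% interval -1.13 to -0.76, adjusted p = 3.62e-07). Cux2 stood at 13.96 and 11.995 FPKM in Ezh2 f/f and at 11.990 and 11.8 FPKM in Ezh2 cKO. Replicate 2 of Ezh2 f/f and replicate 1 of Ezh2 cKO were nearly equal, and only replicate 1 of Ezh2 f/f stood above the rest. Cux2 did not pass the test (log2 fold change -0.21, adjusted p = 0.0735), with a 95% interval of 0.750 to 1.00 for the ratio of Ezh2 cKO to Ezh2 f/f. Without replicate 2 of Ezh2 f/f the fitted log2 fold change of Cux2 was -0.32 and it was called (adjusted p = 0.00703), and without replicate 1 of Ezh2 f/f it was -0.10 and not called (adjusted p = 0.439). The ratio of Cux2 to Cux1 within a library was 1.147 and 1.02 in Ezh2 f/f against 1.79 and 1.82 in Ezh2 cKO, so the paralogues were at nearly equal levels in the controls and Cux2 exceeded Cux1 in both knockout libraries. Cux1 is also expressed outside upper-layer neurons, and the annotation gives it 14 transcripts, which the gene counts do not separate.

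Pou3f2, a POU factor that acts with its relatives in the migration and identity of upper-layer neurons, had 5.17 and 4.48 FPKM in Ezh2 f/f and 3.24 and 4.21 FPKM in Ezh2 cKO. Replicate 2 of Ezh2 cKO lay just under the lower control library, and the groups did not overlap. The fall was 1.37-fold (log2 fold change -0.46 ± 0.14 SE, adjusted p = 0.0104), but without replicate 1 of Ezh2 cKO the log2 fold change was -0.29 and the gene was not called (adjusted p = 0.156). Its paralogue Pou3f3 (BRN1) went from 30.8 and 23.8 FPKM to 11.9 and 13.1 FPKM (log2 fold change -1.21, adjusted p = 4.66e-07). Pou3f1 stood at 17.6 and 15.0 FPKM in Ezh2 f/f and at 13.4 and 15.5 FPKM in Ezh2 cKO (log2 fold change -0.26, adjusted p = 0.0400), with groups that overlapped in FPKM and not in CPM. All 3 POU genes were thus called lower, as were 33.6% of all genes tested. Pou3f2 rose relative to Pou3f3 within the libraries, from a ratio of 0.168 and 0.188 to one of 0.272 and 0.321.

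Rorb was the single regulator called higher. This nuclear receptor, which takes part in the clustering of neurons into barrels, was measured at 1.08 FPKM in both Ezh2 f/f libraries and at 2.10 and 2.78 FPKM in Ezh2 cKO. Its raw counts were 210 and 194 against 403 and 514. These bulk counts do not show whether neurons or glia carried the reads. Both knockout libraries were above both controls and differed more from each other than the controls did, and the rise was 2.13-fold (log2 fold change 1.09 ± 0.15 SE, adjusted p = 2.10e-05). Relative to Cux2 in the same library, Rorb was 7.75% and 8.97% in Ezh2 f/f against 17.5% and 23.5% in Ezh2 cKO. Rorb was the lowest of the 9 regulators in Ezh2 f/f and still the lowest but one in Ezh2 cKO.

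Eomes had the largest fold change of the 9. This T-box factor, which intermediate progenitors switch on before they give rise to neurons, was read 160 and 251 times in Ezh2 f/f, against 13 and 27 times in Ezh2 cKO, or 2.198 and 3.71 FPKM against 0.181 and 0.390 FPKM. The lower control library was still far above the higher knockout library, although the libraries within each group also differed by more than for the other regulators relative to their level. The fall was 11.0-fold (log2 fold change -3.46 ± 0.33 SE, 95% interval -4.17 to -2.74, adjusted p = 5.49e-07), and 172 of the 16793 genes tested (1.02%) had a lower log2 fold change. The size depended on the processing, with a log2 fold change of -4.08 without replicate 2 of Ezh2 cKO and of -1.60 in limma on log2(FPKM + 1), and Eomes was called lower in all of them. Tbr1, the T-box factor that follows Eomes in the lineage of glutamatergic neurons, was 9.56 and 4.98 times as high as Eomes in FPKM in Ezh2 f/f and 83.7 and 40.1 times as high in Ezh2 cKO. Neurog2, a proneural factor of dorsal progenitors, went from 2.23 and 1.77 FPKM to 0.415 and 0.592 FPKM (log2 fold change -2.07, adjusted p = 3.65e-05), and the ratio of Eomes to Neurog2 from 0.986 and 2.10 to 0.435 and 0.658. Insm1, a zinc finger factor of basal progenitors, went from 10.8 and 10.2 FPKM to 1.81 and 1.95 FPKM (log2 fold change -2.57, adjusted p = 2.95e-09).

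**Figure D2:**
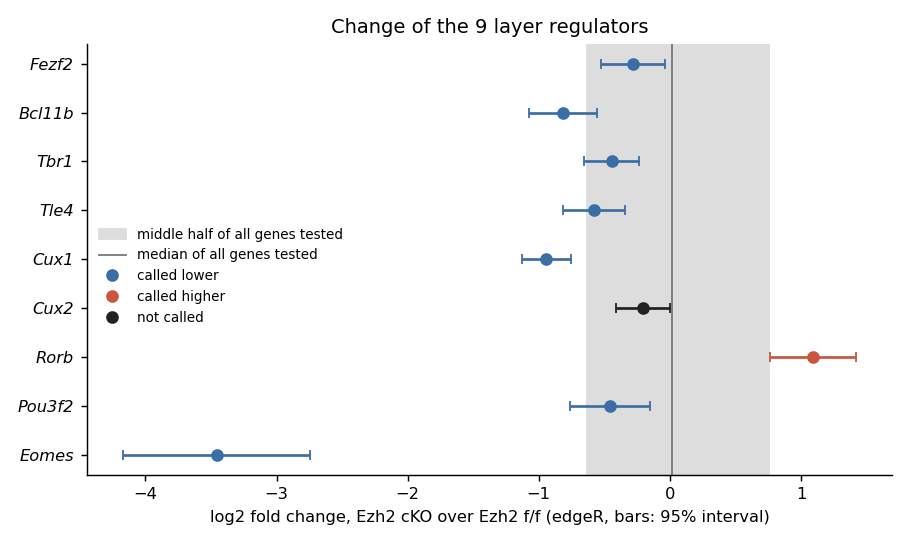
Log2 fold change of each regulator, Ezh2 cKO over Ezh2 f/f, from edgeR with its 95% interval as a bar, and as a grey band the quartiles of all 16793 genes tested (-0.64 to 0.76). Eomes lies far to the left at -3.46, Rorb is the only point to the right of 0 at 1.09, and the interval of Cux2 reaches 0.

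The order of the levels shows which of these regulators dominated the RNA of each group. In Ezh2 f/f, Tbr1 (19.7 ± 1.80 FPKM, SD, n = 2), Fezf2 (19.1 ± 2.71) and Bcl11b (16.9 ± 2.60) stood highest, and each overlapped its neighbour in this order. Cux2 (13.0 ± 1.39) and Cux1 (11.97 ± 0.284) came next and overlapped each other, followed without overlap by Tle4 (8.46 ± 0.960), Pou3f2 (4.82 ± 0.489), Eomes (2.95 ± 1.07) and Rorb (1.08 ± 0.00405). In Ezh2 cKO the order was Fezf2 (16.6 ± 1.597) and Tbr1 (15.4 ± 0.356), which overlapped, then Cux2 (11.9 ± 0.102), Bcl11b (10.2 ± 1.599), Cux1 (6.59 ± 0.137), Tle4 (5.9998 ± 0.556), Pou3f2 (3.72 ± 0.682), Rorb (2.44 ± 0.483) and Eomes (0.285 ± 0.148), with no overlap between neighbours from Tbr1 downwards. Bcl11b and Cux1 moved down relative to Cux2, and Rorb and Eomes exchanged the last places.

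The balance between layers changed little when the regulators were summed. The summed FPKM of the 4 upper-layer regulators (Cux1, Cux2, Pou3f2 and Rorb) divided by that of the 4 deep-layer regulators (Bcl11b, Fezf2, Tbr1 and Tle4) was 0.463 and 0.501 in Ezh2 f/f against 0.505 and 0.519 in Ezh2 cKO. The knockout libraries were above the controls, but the higher control and the lower knockout were nearly equal. Without Cux1 the ratio was 0.289 and 0.300 against 0.365 and 0.386, so the groups lay further apart when Cux1, the upper-layer regulator that fell most, was left out.

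**Figure D3:**
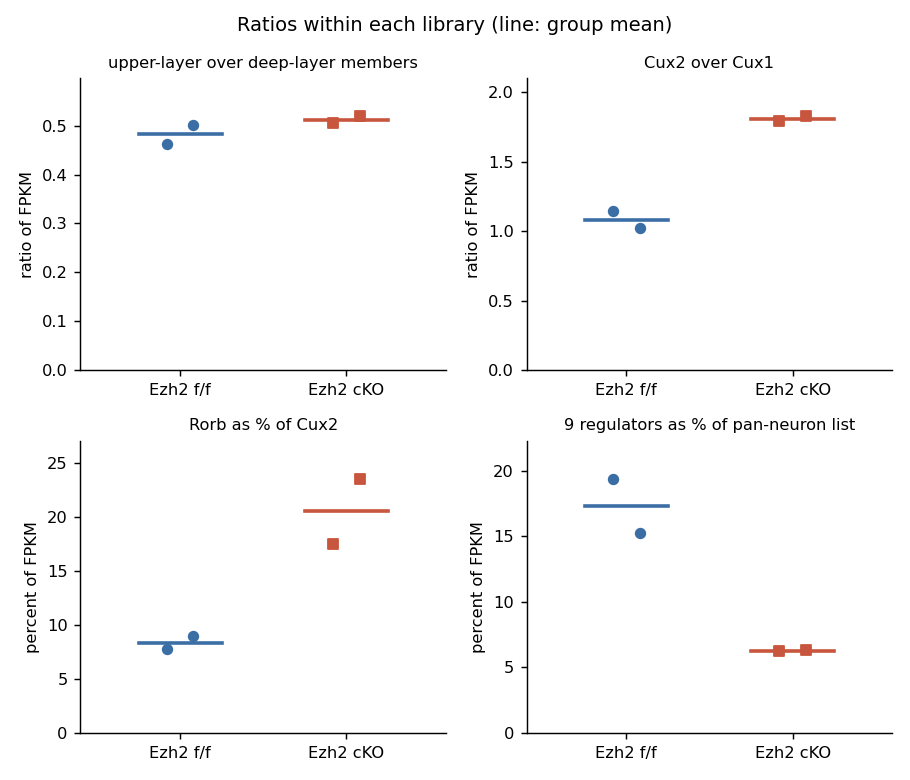
Ratios of FPKM within each of the 4 libraries, with the group mean as a line: upper-layer over deep-layer regulators, Cux2 over Cux1, Rorb as a percentage of Cux2, and the 9 regulators as a percentage of a list of pan-neuron genes. The first ratio nearly meets between the groups (0.501 and 0.505), while Cux2 over Cux1 goes from 1.147 and 1.02 to 1.79 and 1.82 and the share of the pan-neuron list from 19.4% and 15.3% to 6.22% and 6.33%.

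Other genes of the same layers are given beside the shares of all genes tested, of which 34.7% were called higher and 33.6% lower. Of 16 other upper-layer genes, 4 were higher, 5 lower and 7 not called, with a median log2 fold change of -0.01, and these shares are near those of all genes. Rasgrf2 (1.59) and Unc5d (1.22) rose most on the log2 scale, and Pou3f3 (-1.21) and Plxna4 (-0.71), a semaphorin co-receptor, fell most. Of 18 other deep-layer and subplate genes, 8 were higher, 4 lower and 6 not called, with a median of 0.25. Cplx3, a complexin of subplate neurons, rose from 0.773 and 0.708 FPKM to 19.6 and 14.1 FPKM (log2 fold change 4.42, adjusted p = 5.51e-10), and Pcp4 rose by 2.28 on the log2 scale, whereas Foxp2 (-0.78) and Bcl11a (-0.49) fell. The number of lower calls in the deep-layer list was 2 with DESeq2 and 1 with limma on either FPKM scale. Of all genes tested in each fit, 30.0% (DESeq2), 33.7% and 33.4% (limma) were called lower. Not all of the 18 passed limma's filter of 1 FPKM in 2 libraries. The number in the list also fell without replicate 1 of Ezh2 cKO, as did the share of all genes called lower.

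Genes that mark early stages of a neuron were read in the same way. Of 14 neurogenic progenitor genes, 13 could be tested, 8 were lower, 0 were higher and 5 were not called, with a median log2 fold change of -0.47 (33.6% of all genes were called lower). The gene not tested, Neurog1, named here after its values were seen, had at most 1 count in a library. DESeq2 called 6 of the list lower, where it called 30.0% of all genes lower. The number in the list also fell without replicate 2 of Ezh2 cKO, as did the share of all genes called lower. Insm1 and Neurog2 fell most, and Emx2 (-0.46) and Mfng (-0.47) least among those called. Of 12 genes of immature neurons, 9 were lower and 1 higher, with a median of -0.91, beside the same 33.6% and 34.7% of all genes. Igfbpl1 (-3.31) and Sox11 (-2.99), a SOX factor of newly born neurons, fell most, while the growth cone gene Gap43 rose by 0.45.

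Of 10 genes of postmitotic excitatory neurons, 5 were higher, 3 lower and 2 not called, with a median of 1.12, beside 34.7% higher and 33.6% lower among all genes. The share called lower was thus near that of all genes. The bHLH factors Neurod2 (-1.74) and Neurod6 (-1.13), which act in young glutamatergic neurons, fell, and the mature markers Slc17a7 (VGLUT1, 3.44) and Nrgn (neurogranin, 3.11) rose on the log2 scale. Slc17a7 went from 24.3 and 20.7 FPKM to 264 and 252 FPKM. Tbr1, at 86.6% and 89.2% of the Slc17a7 level in Ezh2 f/f, was at 5.73% and 6.20% of it in Ezh2 cKO.

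**Figure D4:**
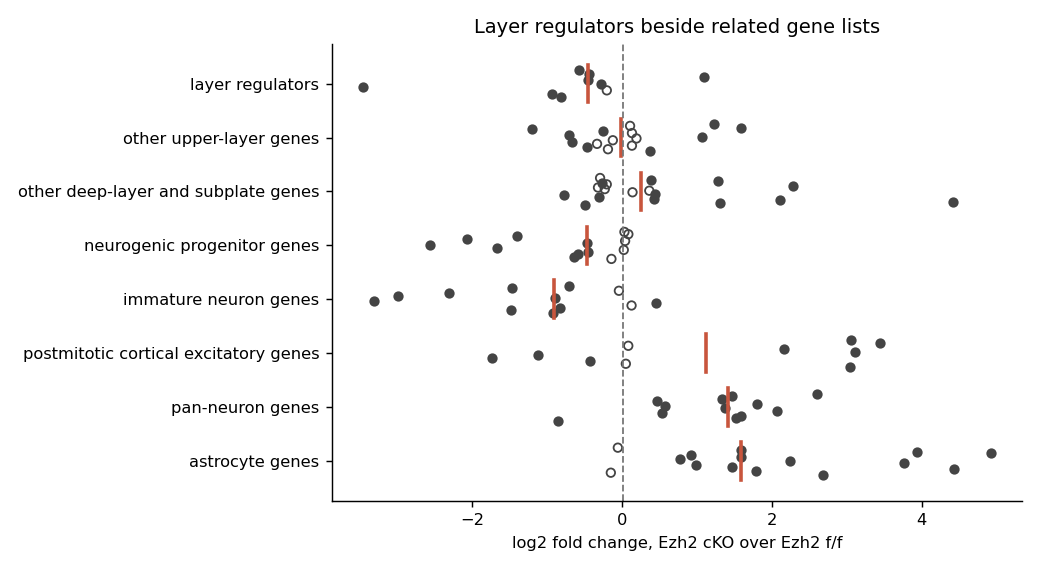
Log2 fold changes, Ezh2 cKO over Ezh2 f/f, of the single genes in 8 lists, with filled points for genes called changed, open points for those not called and a bar at the median of each list. The regulators have a median of -0.46, other upper-layer genes one of -0.01, immature neuron genes one of -0.91, and pan-neuron and astrocyte genes medians of 1.42 and 1.59.

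Markers of whole cell types moved with the groups. Of 12 pan-neuron genes, 11 were higher in Ezh2 cKO and 1 lower (median log2 fold change 1.42, with 34.7% of all genes higher), and their summed FPKM went from 539 and 598 to 1153 and 1177. The 9 regulators amounted to 19.4% and 15.3% of that sum in Ezh2 f/f and to 6.22% and 6.33% in Ezh2 cKO, and Tbr1 alone went from 0.648 and 0.580 of the level of Rbfox3 (NeuN) to 0.295 and 0.311. The immature neuron list moved the other way, with a summed FPKM of 7007 and 7198 in Ezh2 f/f and of 4526 and 4607 in Ezh2 cKO, a mean ratio of 0.643 where that of the regulators was 0.747 and that of the pan-neuron list was 2.05. Of 15 astrocyte genes, 13 were higher and 0 lower, and their summed FPKM rose from 227 and 246 to 901 and 802, while Aldh1l1, the gene that drives the Cre, was not called (log2 fold change -0.15, adjusted p = 0.175). All 10 oligodendrocyte lineage genes (63.1 and 65.4 against 285 and 249 summed FPKM) and all 10 microglia genes (60.0 and 59.5 against 168 and 147) were higher. Inhibitory interneuron genes were 3 higher, 5 lower and 4 not called of 12 (500 and 432 against 553 and 542 summed FPKM), and endothelial and mural genes 4 higher, 2 lower and 4 not called of 10 (128 and 123 against 162 and 143), with 1 gene, Cspg4, in both this list and the oligodendrocyte list. Each of these lists was detected in all 4 libraries, and 0 of their genes were listed at 0 in any library. The part of these shifts in the changes of the 9 regulators was not tested.

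Of 11 genes of PRC2, 7 were lower, 0 higher and 4 not called, with a median log2 fold change of -0.49, where 33.6% of all genes were lower and 34.7% higher. Limma called 4 of the 11 lower on either FPKM scale, and 33.7% and 33.4% of all genes it tested. Not all of the 11 passed its filter of 1 FPKM in 2 libraries. Besides Ezh2, the core subunit Eed was the one that fell most (-0.998), from 6.13 and 5.52 FPKM to 2.80 and 3.38 FPKM, and Suz12 (-0.49) and Aebp2 (-0.41) fell least. Their part in the levels of the regulators was not tested.

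**Figure D5:**
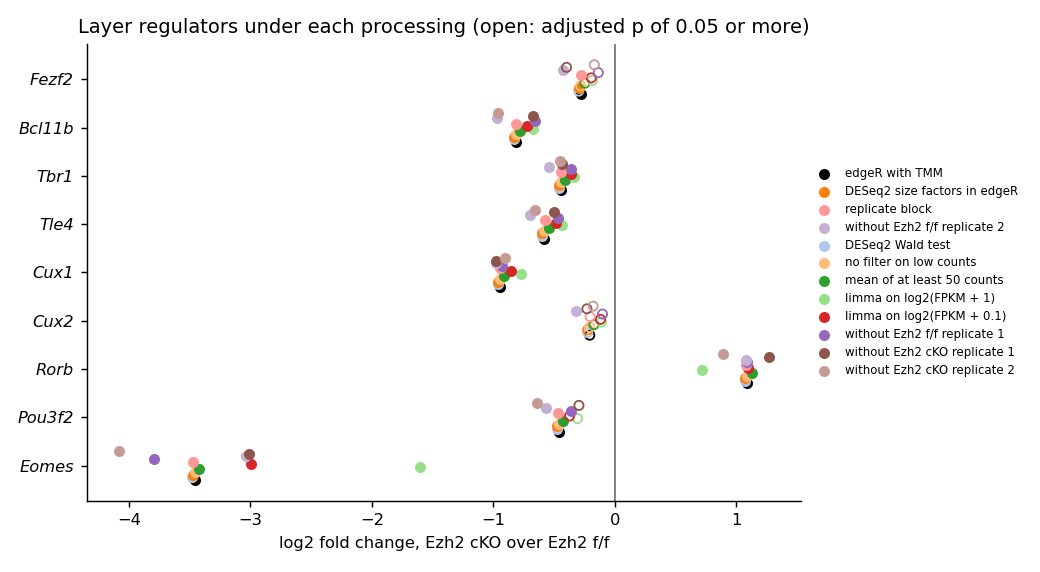
Log2 fold change of each regulator, Ezh2 cKO over Ezh2 f/f, under each of 12 ways of processing, with filled points for an adjusted p under 0.05 and open points otherwise. Fezf2, Cux2 and Pou3f2 have points of both kinds, and Eomes spreads from -4.08 to -1.60, the latter on the log2(FPKM + 1) scale, which shrinks changes of low genes.

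The genes lie on several chromosomes in GRCm38 (GENCODE M21), with Cux1 and Cux2 both on chromosome 5 and Rorb and Tle4 both on 19. Bcl11b is on chromosome 12, Tbr1 on 2, Fezf2 on 14, Eomes on 9 and Pou3f2 on 4. Cux1 (chr5:136248135-136567490) and Cux2 (chr5:121856366-122050102) are both on the minus strand, Eomes spans chr9:118478212-118486132, and Rorb spans chr19:18930605-19111196. The annotation places other genes within Cux1, Cux2 and Eomes, and those of them in the count table had at most 3 counts in any library. How many reads the overlap took from these regulators cannot be told from these counts. Whether the counting used strand is not given in the sources used here.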

How the data were processed

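RNA from bead-sorted cortical cells was sequenced by the authors on an Illumina HiSeq instrument, with 2 libraries from Ezh2 f/f mice and 2 from Ezh2 cKO mice. The deposited count table holds raw reads per gene, and the submitters' processing notes name TopHat2 2.0.12, Bowtie2 2.2.3, HTSeq 0.6.0 and mm9. The deposited FPKM table holds the authors' length-scaled values of the same libraries. Table coordinates matched GRCm38 for 581 of 28799 shared genes, so no table coordinate was printed. The authors' own comparison columns (means, fold changes, p-values) were not used, and 0 sample columns were left out.

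Counts were tested with edgeR 4.0.16 (R 4.3.3) after filterByExpr and TMM scaling, with a quasi-likelihood fit and Benjamini-Hochberg adjustment. CPM used TMM-scaled library sizes, and levels between genes were compared in FPKM. At these depths, 3 counts correspond to 0.171 to 0.184 CPM, and such limits cover counting error alone. Alternatives were DESeq2 1.42.0, DESeq2 size factors, no filter, a mean of at least 50 counts, limma 3.58.1 on log2(FPKM + 1) and log2(FPKM + 0.1) for genes at 1 FPKM or more in 2 libraries, a replicate block and leaving out each library. Ratios were tested with an exact two-sided permutation test (scipy 1.17.1). Replicates of a group differed beyond sampling noise (chi-square per degree of freedom 9.24 and 5.98). The scripts were tested on simulated data.

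The 9 regulators and the 12 other lists were chosen with earlier results of these data known. Named genes were the 9 regulators, Ezh2, the 2 called genes with the highest and the 2 with the lowest fold change in each related list, and the partners and paralogues Sox5, Pou3f1, Pou3f3, Neurog2, Insm1 and Bcl11a. A further gene named by the rule is not reported here. Slc1a3, Aldh1l1 and Rbfox3 were added after their values were seen. Promoters came from the RefSeq table for GRCm38.p6, in which all 9 regulators matched, with 12 windows.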

Additional observations from a re-analysis of the deposited data

How the results depend on the processing

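Bcl11b, Tbr1, Cux1, Tle4, Eomes, Rorb and Ezh2 kept their direction and their call under all 11 alternatives, and no value changed sign. Fezf2 was called in 3 of 11: its log2 fold change was -0.30 with DESeq2 (adjusted p = 0.0647), -0.28 without a filter (0.0860), -0.25 at a mean of at least 50 counts (0.0649), -0.18 and -0.19 in limma with 1 or 0.1 added to the FPKM (0.198 and 0.207), and -0.43 to -0.14 with 1 library left out, where it was lost without Ezh2 f/f replicate 1 (0.330), Ezh2 cKO replicate 1 (0.0509) or Ezh2 cKO replicate 2 (0.370). Pou3f2 was lost in both limma fits (-0.31 and -0.37, adjusted p = 0.0808 and 0.0842) and ranged from -0.64 to -0.29 with 1 library left out. Cux2 ranged from -0.32 to -0.10 in the same fits. Fits with 1 library left out keep 1 library in a group, which is assumed to vary like the other group. Over these fits, the median of the regulators ranged from -0.64 (without Ezh2 cKO replicate 2) to -0.36. In limma on log2(FPKM + 1) the median was -0.34. With 1 library left out, genes called lower ranged from 1 (without Ezh2 cKO replicate 1) to 6 in the deep-layer list (2 with DESeq2, 1 in each limma fit), from 5 (without Ezh2 cKO replicate 2) to 7 in the progenitor list and from 5 to 8 in the PRC2 list (4 in each limma fit). The ratio of the upper-to-deep balance in Ezh2 cKO to that in Ezh2 f/f was 1.06. It was 1.27 without Cux1, and 1.02 to 1.10 with 1 library left out. With the balance taken as a difference of mean log2(FPKM + 1), its change between groups was 1.22 when turned back from the log2 scale into a ratio. The cause of these shifts was not tested.

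Replicate numbers carry no stated pairing, and same-numbered libraries deviated together with a correlation of 0.13. With the replicate block, 11394 genes were called against 11481, and no regulator or Ezh2 changed its call (Fezf2 -0.28, Eomes -3.47). With 2 libraries per group, low regulators such as Eomes in Ezh2 cKO rest on 13 and 27 counts.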
